A study of Mus musculus with 9 samples.

Results

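Dntt-positive Flt3-positive lymphoid-primed progenitors were taken from single-cell RNA sequencing of LSK cells, the lineage-negative, Sca-1-positive and c-Kit-positive bone marrow fraction that holds blood stem cells and multipotent progenitors. A cell barcode was kept if it held 1000 to 40000 unique molecular identifiers (UMIs, counted RNA molecules), no more than 6000 genes and no more than 10% of its UMIs from mitochondrial genes. Members were chosen by their measured UMIs of 4 genes, and a kept cell was a member if it held at least 1 UMI of Flt3, at least 1 UMI of Dntt and none of Il7r or Ly6d. These criteria gave 3425 of 15975 kept cells (21.4%), out of 32387 barcodes in the deposited tables. All mice were C57BL/6, and each of the 9 samples was 1 library of cells that had been frozen alive and thawed. The 3 young samples came from mice aged 10 to 12 weeks and the 3 aged samples from mice over 80 weeks old, both injected with cyclodextrin, the solvent of the drug. The 3 CASIN samples came from mice over 80 weeks old given 4 intraperitoneal injections of CASIN, an inhibitor of the small GTPase Cdc42, 1 every 24 h at 25 mg/kg in cyclodextrin. The comparisons asked how these progenitors differ between young and aged mice and whether CASIN shifts them in aged mice. Nothing in the labels says that the samples of a group were separate animals or single animals rather than pools, so the p-values below measure the spread between these samples, which may be partly technical.

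Multipotent progenitors that carry the cytokine receptor Flt3 and begin to transcribe lymphoid genes while they keep myeloid potential are known as lymphoid-primed. Dntt encodes terminal deoxynucleotidyl transferase, the polymerase that adds bases without a template at the joints of immunoglobulin and T cell receptor genes, and its RNA appears in the marrow before these genes are cut by the Rag proteins. Il7r, the interleukin 7 receptor chain, and Ly6d mark the next steps towards B cells, and cells with either were excluded by the rule. Satb1, a chromatin organizer, is known to promote the lymphoid programme in early progenitors.

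The 9 libraries fell into 2 sequencing batches that stood well apart. The third sample of the young and CASIN groups and aged replicates 2 and 3 belonged to batch 2, and the other 5 samples to batch 1. Total UMIs per library came to 37559262, 32293588 and 26973206 for the young, 19237354, 40394304 and 38040514 for the aged and 20235579, 21660600 and 42780953 for the CASIN samples. From 56.7% to 86.5% of the barcodes of a batch 1 library were kept, against 31.8% to 38.8% in batch 2. The median mitochondrial share of the member cells lay between 2.49% and 3.07% in batch 1 and between 3.84% and 5.67% in batch 2. Xist, the RNA of the inactive X chromosome, was at or below 0.0738 CPM (counts scaled to 1e+06 UMIs) in the member cells of all 5 batch 1 libraries and between 2191 and 2728 CPM in those of batch 2. Eif2s3y, a Y-linked gene, ran from 68.4 to 79.1 CPM in batch 1 and had no UMI in batch 2. The sex of the cells and the sequencing batch therefore cannot be told apart, and each comparison of genes between conditions was fitted with the batch as a term, while shares of cells were compared without it and are also given within batches. Kept cells shared 62 barcodes between libraries, which covered 155 kept cells and 20 members. A doublet caller marked 92 kept cells (0.576%) and 26 members (0.759%).

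The numbers of member cells were 712, 835 and 209 in the young samples, 175, 327 and 308 in the aged samples and 209, 355 and 295 in the CASIN samples. Their summed UMIs ranged from 2950823 in aged replicate 1 to 13615090 in young replicate 2. A member held a median of 15444 UMIs, against 11706 in all kept cells. Dntt was unevenly distributed, with a median of 4 UMIs per member, quartiles of 2 and 11 and a maximum of 125. At the edge of the rule, 824 members (24.1%) held a single Dntt UMI, at a median depth of 14334 UMIs, and 299 of these also held a single Flt3 UMI. Just outside it, 1921 cells with a single Flt3 UMI held no Dntt UMI, at a median depth of 11945 UMIs. As a reference level, Dntt was read in stem-type cells, with Procr and Hlf UMIs and no Flt3 UMI. They held a Dntt UMI in 9.43%, 15.6% and 8.64% of cases in the young, 1.35%, 6.44% and 7.65% in the aged and 3.87%, 4.59% and 4.13% in the CASIN samples, at median depths of 9184 to 12696 UMIs. Cells whose Flt3 RNA was not caught can be among them. Whether these Dntt UMIs were stray RNA or made by the cells was not tested. This level was higher in every young sample than in any aged or CASIN sample.

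The genes that chose the cells and the third marker were read as CPM of the UMIs summed over the members of each sample. Dntt stood at 571, 626 and 357 CPM in the young, 640, 505 and 340 CPM in the aged and 449, 644 and 357 CPM in the CASIN samples. The batch 2 samples were at or below 505 CPM, and the groups overlapped throughout. Flt3, the receptor of a growth factor that maintains early lymphoid cells, ranged from 163 to 226 CPM with a median of 178 CPM over the 9 samples. Satb1, which the rule did not use, stood at 122, 137 and 103 CPM in the young, 120, 151 and 102 CPM in the aged and 120, 161 and 97.9 CPM in the CASIN samples. It did not separate the groups, with a log2 fold change of 0.20 for aged against young (edgeR quasi-likelihood test, adjusted p = 0.747) and -0.11 for CASIN against aged (adjusted p = 0.934). Satb1 was higher in the members than in Flt3-positive cells without Dntt in all 9 samples, which had 32.1 to 73.9 CPM, so the third marker did not go against the label.

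Of the marker lists of other cell types, that of T and NK cells had the highest sum in the members, nearly all of it from 1 gene, and several defining markers were at 0. The B lineage list of 10 genes summed to 12.4 to 48.4 CPM per sample, most of it Cd79b at a mean of 25.5 CPM, with Cd22 at 0 in all samples and 3 UMIs of Ms4a1 over all 3425 cells. The dendritic list of 10 genes summed to 8.76 to 40.4 CPM, led by Cox6a2 at 15.6 CPM, with Cd209a and Klk1 at 0 and 15 UMIs of Siglech in all. The list of T and NK lineage genes summed to 108 to 226 CPM, nearly all Nkg7 at a mean of 165 CPM, with Cd3e, Cd3g and Gzma at 0. Red cell genes summed to 9.47 to 39.8 CPM, led by the globin gene Hbb-bt at 20.3 CPM, and mature granulocyte and macrophage genes to 13.2 to 17.7 CPM, led by Cd68. The 8 genes of stroma and endothelium summed to 35.4 to 66.7 CPM, led by Pecam1 at 28.7 CPM, an adhesion molecule that blood progenitors also carry. Igkc, the kappa light chain and a main product of antibody-secreting cells, was read at 0.664, 0.0734 and 62.8 CPM in the young, 3.73, 142 and 316 CPM in the aged and 11.6, 81.4 and 88.8 CPM in the CASIN members. Its ratio to the Flt3-positive cells without Dntt lay between 0.273 and 1.74, whereas that of Ighm, the immunoglobulin mu heavy chain, lay between 1.22 and 6.69 and above 1 in 9 of 9 samples.

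The members were arranged by their own Dntt count, and Flt3-positive cells with no Dntt, Il7r or Ly6d UMI served as the class below them. The bins of 0, 1, 2 to 4, 5 to 9 and at least 10 Dntt UMIs held 3414, 824, 923, 702 and 976 cells, at median depths of 12442, 14334, 14639, 15156 and 18142 UMIs, so the bins also differed in depth. Since Dntt placed the cells in these bins, the levels are a description with no test. Satb1 went from 51.3 ± 12.9 CPM (SD, n = 9 samples) in cells with no Dntt to 86.3 ± 18, 114 ± 26.8, 140 ± 18.9 and 149 ± 27.2 CPM. Notch1, the receptor that directs progenitors to the T lineage, went from 23.2 ± 4.61 to 67.5 ± 10.9 CPM between the end bins. Ighm, whose unrearranged locus is transcribed early, went from 59.6 ± 52.2 to 253 ± 29.2 CPM. Irf8, a factor of dendritic and B cell development, differed little between 0 and 1 Dntt UMI (21.1 ± 6.05 and 20.1 ± 8.95 CPM) and reached 64.7 ± 18.8 CPM in the top bin.

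Stem cell genes ran the other way along the Dntt bins. Procr, the endothelial protein C receptor found on stem cells, went from 80.9 ± 29.6 CPM without Dntt to 15.6 ± 11.3 CPM in the top bin. Kit, the stem cell factor receptor used in the sort, went from 165 ± 39.7 to 84.2 ± 14.8 CPM. Ltb, lymphotoxin beta, which stood on the lymphoid list, nonetheless went from 146 ± 65.6 to 80.0 ± 36.1 CPM. Rag1 and Rag2, the recombinase genes, were almost silent in every bin, with at most 0.390 ± 0.556 CPM of Rag1 and 1.92 ± 1.89 CPM of Rag2, and Rag1 had 15 UMIs in all members together. The summed dendritic list was 10.6 ± 5.92 CPM at 0 Dntt UMIs, 4.97 ± 3.73 CPM at 1 and 48.5 ± 21.3 CPM at 10 or more, and the mitotic list went from 829 ± 109 CPM at 0 to 1569 ± 332 CPM at 10 or more.

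**Figure D1:**
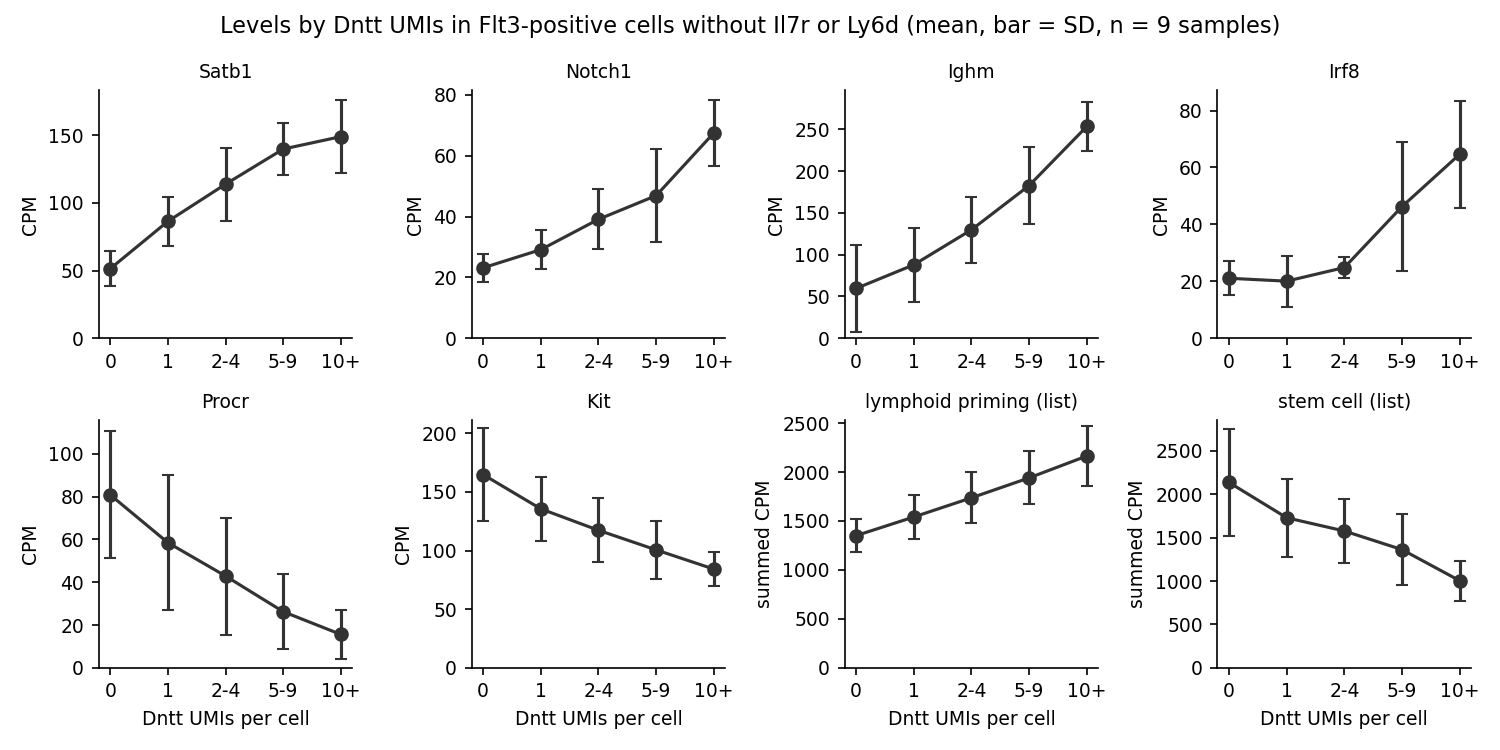
Levels of 6 genes (CPM) and 2 summed gene lists (summed CPM) against the Dntt UMIs per cell in Flt3-positive cells without Il7r or Ly6d, as the mean with SD over 9 samples. Satb1, Notch1, Ighm and the lymphoid list were highest in the bins with most Dntt, Procr, Kit and the stem cell list were lowest there, and Irf8 stood at 46.3 CPM at 5 to 9 UMIs and 64.7 CPM at 10 or more, against 21.1 CPM without Dntt.

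The members were next set against the 3414 Flt3-positive Dntt-negative cells of the same samples, which held a median of 12442 UMIs. This contrast is the one the rule drew, so its calls are read as a description and nothing is drawn from them. Over all genes, edgeR called 19.7% of 10705 genes higher and 18% lower in the members, and the median log2 fold change of all genes was -0.001. Of the 15 tested genes of the lymphoid list, 13 were called higher and 2 lower, with a median log2 fold change of 0.49, and 9 were higher in 9 of 9 samples. Cnn3, a calponin, averaged 18.9 CPM in the members and 5.21 CPM in the Dntt-negative cells. Mef2c, a transcription factor of lymphoid priming, averaged 593 against 404 CPM, Notch1 46.9 against 23.2 CPM and Ighm 169 against 59.6 CPM. Of the 9 tested genes for cutting and joining receptor genes, 4 were called higher and none lower (median 0.22), with Xrcc6, which encodes the Ku70 end-binding protein, at 52.3 against 33.6 CPM.

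The stem cell list gave the opposite picture, with 0 of 14 tested genes called higher, 13 lower and a median of -1.02. Hlf, a stem cell transcription factor, averaged 132 against 249 CPM, and Gata2 23.2 against 58.4 CPM. All 7 tested megakaryocyte and erythroid genes were called lower (median -1.0), among them the platelet chemokine Pf4 at 6.31 against 31.5 CPM and the platelet integrin Itga2b at 6.65 against 23.9 CPM. Of the genes of the whole table that met the naming rule, Nupr1, a stress-response gene, stood at 6.73 against 47.4 CPM and Apoe, apolipoprotein E, at 31.8 against 181 CPM.

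Myeloid genes were split. Of the 15 tested granule and myeloid genes, 5 were called higher and 6 lower in the members (median -0.02). Irf8 averaged 40.5 against 21.1 CPM and Cebpa, a granulocyte factor, 33.8 against 23.2 CPM, whereas Prtn3, the gene of proteinase 3, averaged 409 against 567 CPM and Elane, neutrophil elastase, 2.01 against 13.4 CPM. Among the genes with the largest differences were Clec12a, an inhibitory lectin receptor of myeloid cells, at 36.9 against 10.5 CPM, Il12a, an interleukin 12 subunit, at 114 against 36.7 CPM, and Cd69, an activation antigen, at 155 against 61.9 CPM. All 4 tested genes of the chemokine and Wfdc list were called higher (median 1.13). Ccl3 ranged from 160 to 805 CPM in the members and from 64.7 to 414 CPM in the Dntt-negative cells, and it was higher in the members of 9 of 9 samples.

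Proliferation genes were higher in the members as well, which were also the deeper cells, at a median of 15444 against 12442 UMIs. In cells thinned to 4000 UMIs the calls of this contrast went from 4036 of 10705 genes tested to 905 of 6800. The part of depth in the calls listed here was not tested. All 20 mitotic genes were called higher (median 0.62) and 18 of 20 DNA replication genes were (median 0.36), with none lower. Top2a, the topoisomerase of dividing cells, averaged 238 against 166 CPM and Ube2c, a mitotic ubiquitin ligase partner, 113 against 60.7 CPM. The cyclin D and Cdk list had 3 called higher and 4 lower, including the cell cycle inhibitor Cdkn1c at 7.54 against 18.6 CPM. The remaining lists gave 7 higher and 0 lower of 10 heat shock genes, 6 and 3 of 12 genes of folding in the endoplasmic reticulum, 4 and 0 of 11 NF-kB genes, 4 and 7 of 20 immediate early genes, 4 and 3 of 15 interferon genes, 1 and 3 of 6 MHC class II genes and 3 and 1 of 6 sorting markers. Among the sorting markers was Cd48, which separates multipotent progenitors from stem cells, at 111 against 65.0 CPM.

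**Figure D2:**
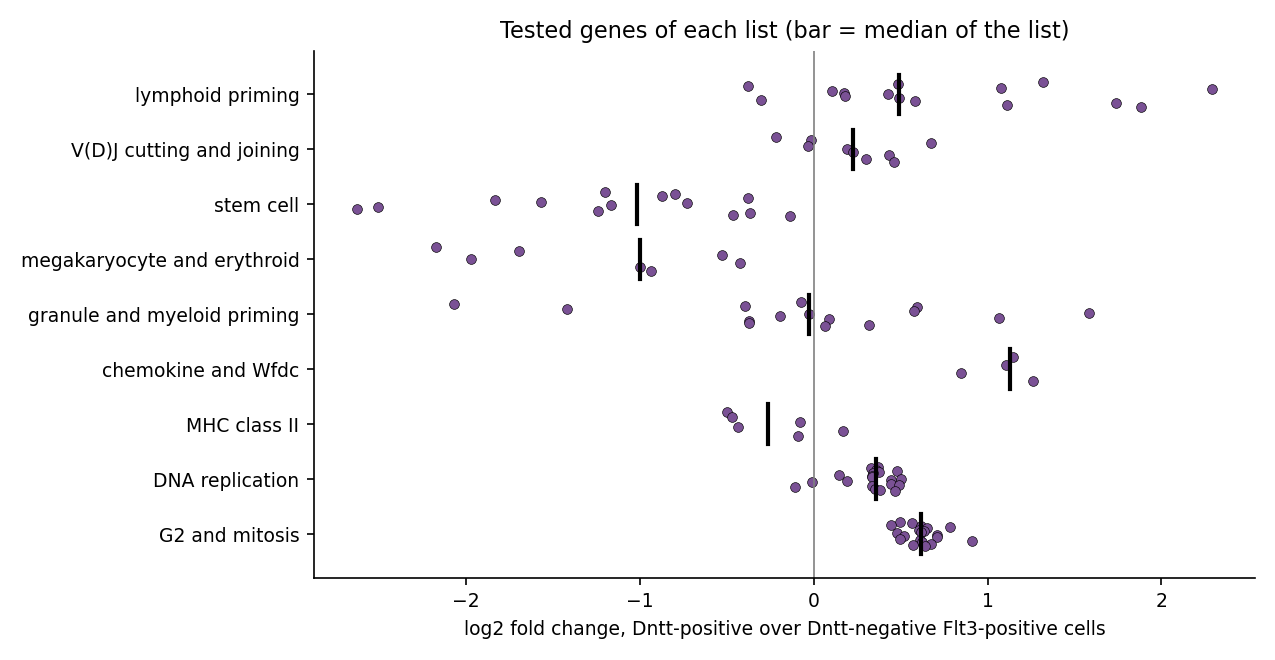
Fitted log2 fold change of each tested gene (points) of 9 lists between Dntt-positive and Dntt-negative Flt3-positive cells, with the list median as a bar. The medians of the stem cell and megakaryocyte and erythroid lists lay at -1.02 and -1.0, and those of the lymphoid, mitotic and chemokine lists at 0.49, 0.62 and 1.13.

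On the other side of the rule stood the 594 cells with Il7r or Ly6d, of which 364 (61.3%) also held Flt3 and Dntt. The wider class had a mean of 109235 CPM of Igkc, so the levels given here come from those 364 cells. They numbered 80, 112 and 9 in the young, 13, 29 and 13 in the aged and 20, 77 and 11 in the CASIN samples. Dntt averaged 499 CPM in the members and 1721 CPM in the Il7r or Ly6d cells, and Satb1 124 and 205 CPM. Ebf1, the factor that commits cells to the B lineage, averaged 1.13 CPM in the members, with 0 to 2.86 CPM per sample, and 100.5 CPM in the Il7r or Ly6d cells, with 4.48 to 257 CPM. Blnk, an adaptor of the B cell receptor, averaged 2.87 and 39.1 CPM and Vpreb1, a surrogate light chain, 2.14 and 59.6 CPM. Irf8 averaged 40.5 and 128 CPM, Cnn3 18.9 and 85.5 CPM and Cox6a2, a gene of plasmacytoid dendritic cells, 15.6 and 202 CPM. Stem cell genes were higher in the members, with Hlf at 132 against 35.5 CPM, Mecom at 55.5 against 16.5 CPM and Ifitm1 at 743 against 235 CPM.

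Against all 594 cells, edgeR called 6.19% of 9494 genes higher and 5.75% lower in the members. As the rule drew this contrast too, the counts by list are given as a description. Of the 17 tested lymphoid genes 1 was called higher and 11 lower (median -0.42, all genes 0.03), and of 11 stem cell genes 6 were called higher and 2 lower (median 0.76). Against the 364 cells alone, edgeR called 7.94% of 9530 genes higher and 6.65% lower, and 725 of these 1391 genes were among the 1134 called against all 594 cells. Of the 17 lymphoid genes 1 was then called higher and 14 lower (median -0.61), and of 12 stem cell genes 8 were called higher and 0 lower (median 1.12). Of 12 granule and myeloid genes 7 were called higher and 2 lower (median 0.54). Of 4 chemokine and Wfdc genes 2 were called higher and 0 lower (median 0.37). The median of that last list was positive against the Dntt-negative cells too, so not every list lay between the classes. Among single genes, Satb1, Notch1, Cnn3, Irf8, Hlf and Kit had levels in the members between those of the 2 neighbouring classes. They are examples, and the genes that lay between the classes or outside them were not counted. In the Dntt-negative cells, the members and the 364 cells, Satb1 averaged 51.3, 124 and 205 CPM and Notch1 23.2, 46.9 and 83.7 CPM. In the same order Cnn3 averaged 5.21, 18.9 and 85.5 CPM and Irf8 21.1, 40.5 and 128 CPM. Hlf averaged 249, 132 and 35.5 CPM and Kit 165, 108 and 54.4 CPM.

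The share of the members among LSK cells was compared at an equal depth of 4000 UMIs per cell, to which 15606 of the 15975 kept cells were thinned, with the shallower ones left out, since a deeper cell is more likely to show a Dntt UMI. A lower share of such cells and less Dntt or Flt3 RNA per cell cannot be told apart in this measure. The thinned shares were 14.3%, 18.5% and 6.24% in the young, 4.88%, 8.73% and 6.96% in the aged and 6.90%, 10.9% and 4.33% in the CASIN samples. Young replicates 1 and 2 were the highest, and young replicate 3 lay within the range of the aged samples. The mean was 13.0% ± 6.22 (SD, n = 3) in young, 6.85% ± 1.93 in aged and 7.39% ± 3.33 in CASIN samples. Aged samples were 6.17 percentage points below young ones, which did not pass a two-sided exact permutation test (p = 0.3, adjusted over 3 comparisons 0.45), and 3 samples against 3 cannot give a p below 0.1. The difference was -11.5 points in batch 1 and 1.60 points in batch 2, so it did not hold within both batches. It was -3.44 points without young replicate 2 and -9.56 points without young replicate 3.

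CASIN samples differed from aged ones by 0.533 points (exact permutation p = 1), with 4.04 points in batch 1 and -3.52 points in batch 2. They lay 5.64 points below the young samples (exact permutation p = 0.3, adjusted 0.45), with -7.49 and -1.92 points in the batches, -2.91 points without young replicate 2 and -9.03 points without young replicate 3. Without thinning the shares were 33%, 37.8% and 17.2% in the young, 11.2%, 19.3% and 17.4% in the aged and 18.7%, 19.7% and 12.1% in the CASIN samples, and the exact permutation p for aged against young was again 0.3. Thinned in the same way, the stem-type cells with Procr and Hlf and no Flt3 showed a Dntt UMI in 3.65%, 6.50% and 3.92% of cases in the young, 0.534%, 2.50% and 3.31% in the aged and 1.21%, 2.47% and 1.84% in the CASIN samples. Every young value of this reference level lay above every aged and CASIN value, the same direction as the difference in mean share, and its part in that difference was not tested.

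Among Flt3-positive cells without Il7r or Ly6d, the thinned share that held Dntt was 42.0%, 49.9% and 30.0% in the young, 38.1%, 37.8% and 33.2% in the aged and 37.2%, 48.9% and 32.3% in the CASIN samples. These ranges overlapped almost fully. Aged samples were 4.26 points below young (exact permutation p = 0.5, adjusted 0.9), with -7.81 points in batch 1 and 5.49 points in batch 2. CASIN samples were 3.09 points above aged (exact permutation p = 0.9), with 4.92 points in batch 1 and -3.22 points in batch 2. They were 1.17 points below young (exact permutation p = 0.9), with -2.89 and 2.27 points in the batches, so the sign of all 3 differences turned between the batches. Unthinned means were 50.1%, 45.4% and 49.4% in young, aged and CASIN samples.

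**Figure D3:**
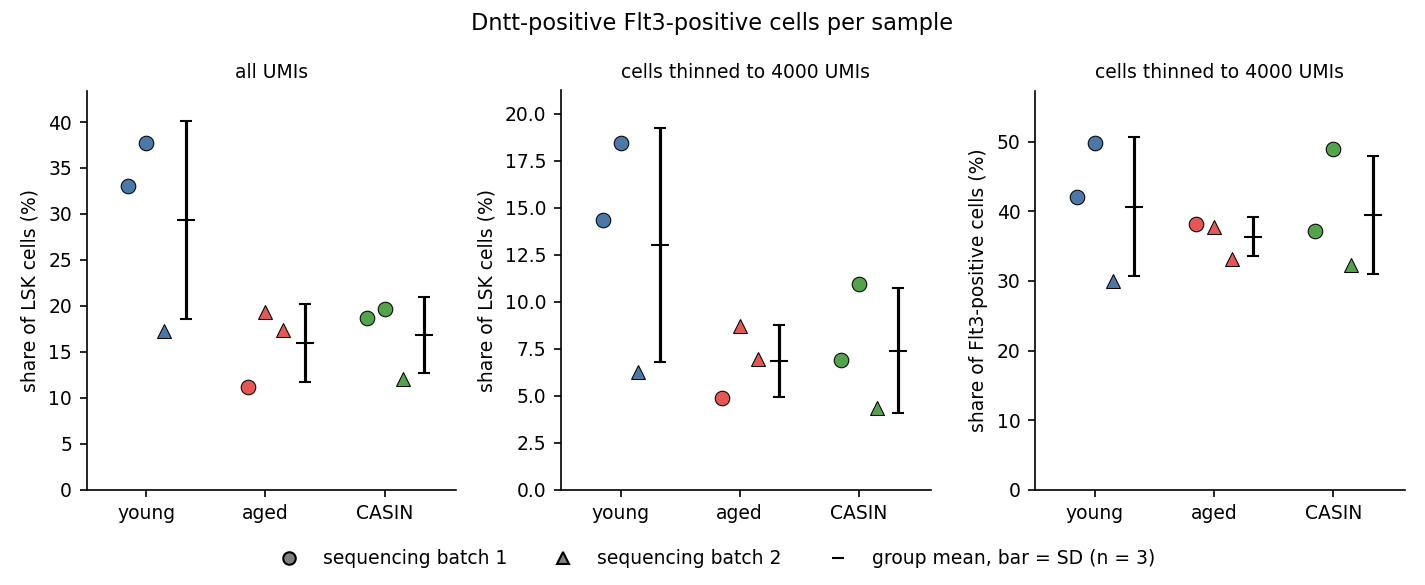
Share of Dntt-positive Flt3-positive cells per sample (percent), of LSK cells unthinned, of LSK cells thinned to 4000 UMIs and of Flt3-positive cells thinned likewise, with symbols for the sequencing batch and the mean and SD of each group of 3. Among LSK cells the highest shares were those of young replicates 1 and 2, and young replicate 3 lay within the range of the aged samples, while among Flt3-positive cells CASIN replicate 2 (48.9%) lay above young replicate 1 (42.0%) and young replicate 3 (30.0%) below every aged sample.

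In the member cells, 13 genes were higher and 4 lower in aged than in young samples. The largest group among them was MHC class II, the molecules that present peptides to helper T cells. H2-Aa, the alpha chain of I-A (ENSMUSG00000036594, GRCm38 chromosome 17, 34282744 to 34287823), stood at 27.1, 20.1 and 34.7 CPM in the young, 56.6, 149 and 114 CPM in the aged and 48.2, 77.6 and 95.4 CPM in the CASIN samples. Every aged and CASIN sample lay above every young sample. Its log2 fold change for aged against young was 1.69 ± 0.21 (SE, edgeR adjusted p = 0.0079), with 1.32 in batch 1 and 1.93 in batch 2. These calls were 17 of 11101 genes tested, or 0.153%.

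The other chains moved with it. H2-Eb1, the beta chain of I-E (chromosome 17, 34305867 to 34316674), stood at 20.9, 16.5 and 21.8 CPM in the young, 43.7, 93.8 and 79.8 CPM in the aged and 48.2, 76.9 and 70.3 CPM in the CASIN samples (aged against young 1.74 ± 0.22, edgeR adjusted p = 0.0079). H2-Ab1, the beta chain of I-A (chromosome 17, 34257689 to 34269419), stood at 80.5, 69.6 and 105 CPM, 116, 224 and 175 CPM, and 110.2, 148 and 177 CPM in the same order (0.85 ± 0.15, edgeR adjusted p = 0.0385). Cd74, the invariant chain that guides class II molecules through the cell, stood at 63.4, 51.7 and 57.7 CPM in the young, 114, 301 and 219.5 CPM in the aged and 94.5, 166 and 176 CPM in the CASIN samples (1.65 ± 0.26, edgeR adjusted p = 0.0197). For these 3 genes too the young samples lay below all the others. H2-DMa and H2-DMb1, which load the peptides, averaged 178 and 40.8 CPM in young and 169 and 46.6 CPM in aged samples and were not called. In all, 4 of the 6 tested genes of the list rose, the median log2 fold change of the list was 1.25 against 0.02 for all genes, and it was 0.86 in batch 1 and 1.44 in batch 2.

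The level of Igkc given above was also higher in aged than in young samples of the same batch, and its part in the class II result was not tested. Replicate 1 was the lowest of its group for both Igkc and Cd74 in the aged and in the CASIN samples. In the young samples replicate 3 was the highest for Igkc and lay between the others for Cd74. Aged replicate 1 was the only aged sample of batch 1, and young replicate 3 the only young sample of batch 2. In the aged and young groups these orders therefore cannot be told apart from the batch. The B cell gene Ms4a1 was at or below 0.243 CPM in every sample, but Cd79b, on the same B lineage list, had a higher level, as given above. In the Flt3-positive Dntt-negative cells H2-Aa stood at 35.3, 33.1 and 36.4 CPM in the young and 85.7, 174 and 110 CPM in the aged samples. The change with age was not tested within that class alone. The age differences of the 2 classes did not differ detectably for H2-Aa (log2 difference -0.09, edgeR interaction, adjusted p = 0.977), H2-Eb1 (-0.41, 0.775), H2-Ab1 (-0.34, 0.273) or Cd74 (-0.22, 0.865).

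The promoters of the 2 class II genes with the largest changes are shown because class II promoters share conserved boxes, of which the Y box, an inverted CCAAT box, can be searched by its letters. The windows run from 250 bases before to 50 bases after the RefSeq start on GRCm38.p6, 5′ to 3′ on the strand of the gene, at chr17:34287774-34288073 on the minus strand and chr17:34305617-34305916 on the plus strand. Capitals mark the motif CTGATTGG, searched on both strands.
H2-Aa: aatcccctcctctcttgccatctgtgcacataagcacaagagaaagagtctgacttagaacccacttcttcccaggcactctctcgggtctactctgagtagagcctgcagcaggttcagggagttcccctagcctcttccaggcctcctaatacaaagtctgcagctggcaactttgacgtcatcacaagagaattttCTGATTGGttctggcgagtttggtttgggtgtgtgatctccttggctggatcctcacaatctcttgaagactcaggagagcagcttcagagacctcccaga
H2-Eb1: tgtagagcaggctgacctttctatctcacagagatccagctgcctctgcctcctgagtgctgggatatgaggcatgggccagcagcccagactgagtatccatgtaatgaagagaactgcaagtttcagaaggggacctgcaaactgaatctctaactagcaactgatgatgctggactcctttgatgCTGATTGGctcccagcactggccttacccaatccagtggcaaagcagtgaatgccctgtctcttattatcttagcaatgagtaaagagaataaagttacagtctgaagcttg
Each window held the motif once, ending 43 bases before the start in H2-Aa and 54 bases before it in H2-Eb1. The motif was present in 1346 of 32851 promoter windows of the same length (4.10%) and in 2 of the 4 windows at hand from the list, H2-Aa, H2-Eb1, H2-DMa and H2-DMb1. A match is a description of the sequence and was not measured as a bound site.

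Other genes that rose with age came from different pathways. Selp, the adhesion receptor P-selectin, stood at 3.84, 4.99 and 8.49 CPM in the young, 18.6, 19.1 and 36.1 CPM in the aged and 12.3, 11 and 20.2 CPM in the CASIN samples (aged against young 1.92 ± 0.25, edgeR adjusted p = 0.0079). Cenpv, a centromere protein, averaged 30.7 ± 9.55 CPM in young and 50.7 ± 18.3 CPM in aged samples (SD, n = 3), and every aged sample lay above every young one (1.00 ± 0.14, edgeR adjusted p = 0.0104, 1.04 and 1.05 in the batches). Mt1, a metallothionein that binds zinc and copper, averaged 11.2 ± 5.4 and 31.4 ± 12.7 CPM (1.25 ± 0.18, edgeR adjusted p = 0.0104). Slc16a11, a monocarboxylate transporter, fell, from 33.6, 41.0 and 24.3 CPM in the young to 11.9, 10.0 and 8.45 CPM in the aged samples, with 21.4, 17.6 and 9.93 CPM in the CASIN samples (-1.40 ± 0.18, edgeR adjusted p = 0.0079). No aged sample reached the lowest young one. Sdc1, a heparan sulphate proteoglycan (-1.10, adjusted p = 0.0301), and Cables1, an adaptor of cyclin-dependent kinases (-0.92, adjusted p = 0.0144), were called lower by edgeR, but both stood higher in batch 2 than in batch 1, with Cables1 at 7.16 and 7.57 CPM in young replicates 1 and 2 and 89.8 CPM in young replicate 3.

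The remaining 7 called genes fell outside the naming rule, mostly because of their low level, and were named after their values were seen. Bmpr1a, a receptor of bone morphogenetic proteins (chromosome 14, 34410734 to 34503341), had the largest fold. It stood at 0.369, 0.147 and 0.970 CPM in the young, 3.39, 12.5 and 14.4 CPM in the aged and 5.45, 3.88 and 15.4 CPM in the CASIN samples, which rest on 11, 151 and 122 UMIs per group (aged against young 3.80 ± 0.36, edgeR adjusted p = 0.0007). Maf, a lymphoid and myeloid transcription factor, stood at 6.34, 6.83 and 5.10 CPM, 20.3, 13.7 and 12.4 CPM, and 18.2, 30.6 and 10.5 CPM in the same groups (1.72 ± 0.26, edgeR adjusted p = 0.0144). Aldh1a1, a retinaldehyde dehydrogenase (2.95), and Clec1a, a lectin receptor (2.97), were also called higher on 16 and 11 UMIs in all young members. Dusp8 (2.44) and the cytokine gene Il11 (2.64, but -0.89 within batch 1) were called higher and Trib3 (-1.84) lower, and in all 3 the batch 2 samples held most of the UMIs. Without young replicate 3 the log2 fold change of Dusp8 was 1.48 (edgeR adjusted p = 0.740) and that of Il11 1.12 (0.854).

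**Figure D4:**
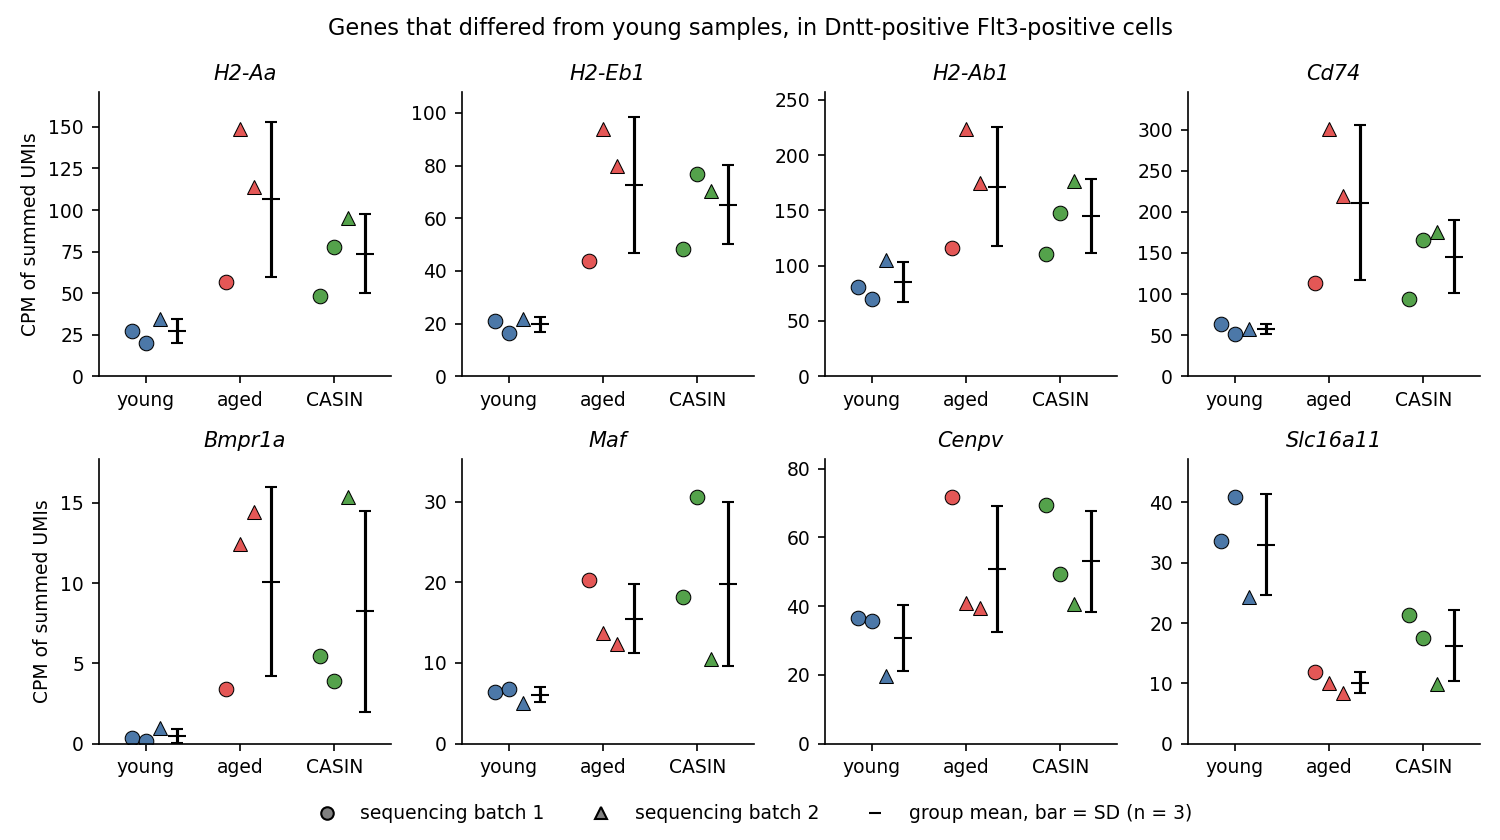
CPM of 8 genes in the Dntt-positive Flt3-positive cells of each sample, with symbols for the sequencing batch and the mean and SD of each group of 3. For H2-Aa, H2-Eb1, H2-Ab1, Cd74, Bmpr1a and Maf every aged and CASIN sample lay above every young sample, and for Slc16a11 every one lay below.

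These calls rest on a small design. Without the batch term edgeR called 0 genes for aged against young and 0 for CASIN against young. Without young replicate 3, the only young sample of batch 2, Bmpr1a alone was still called for age (edgeR adjusted p = 0.0375). The log2 fold changes of the class II genes were then 1.56 for H2-Aa and 1.62 for H2-Eb1 (edgeR adjusted p = 0.110 for both). Those of H2-Ab1 and Cd74 were 0.80 (0.322) and 1.32 (0.273). Leaving out aged replicate 1 gave 51 genes. For CASIN against young, edgeR called 13 genes, and 6, 4 and 6 without young replicates 1, 2 and 3, 6 without CASIN replicate 2 and 7 without CASIN replicate 3.

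CASIN samples were then compared with young ones, which form the same control group as above, so the comparisons are not independent. Here edgeR called 11 genes higher and 2 lower, 0.117% of the genes tested. H2-Eb1 (1.74 ± 0.20, edgeR adjusted p = 0.0031), H2-Aa (1.44 ± 0.20, 0.0121) and H2-Ab1 (0.79 ± 0.14, 0.0489) were higher, 3 of the 6 class II genes tested, with a list median of 1.05. Cenpv was higher by 0.82 (edgeR adjusted p = 0.0281) and Slc16a11 lower by a log2 fold change of -1.01 (0.0263). Hmga2, a chromatin protein of fetal progenitors, was lower at -1.30 (edgeR adjusted p = 0.0390), with 12.5, 18.1 and 48.5 CPM in the young and 5.68, 4.29 and 25.7 CPM in the CASIN samples, and each batch showed the same direction. Outside the naming rule, and named after their values were seen, were Bmpr1a (4.04), Clec1a (3.76), Aldh1a1 (2.98), Maf (1.74), Cpne8 (1.74), Gm14964 (1.5) and Tnfsf13os (1.34), all higher.

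Between CASIN and aged samples edgeR called 0 of 11101 genes (0%). At an unadjusted p under 0.05 it counted 711 genes, and DESeq2 called 0 with 407 at that level. Cdc42, the target of CASIN, stood at 381, 368 and 374 CPM in the young, 346, 390.3 and 400.1 CPM in the aged and 341, 326 and 399 CPM in the CASIN samples, and neither comparison passed the test (aged against young 0.01, edgeR adjusted p = 0.991, CASIN against aged -0.07, adjusted p = 0.919). For the class II list the median of CASIN against aged was -0.08, with H2-Aa at -0.25 ± 0.21 (edgeR adjusted p = 0.852) and H2-Eb1 at 0.00 ± 0.35 (1.000). With these SEs a change of either sign remains possible, and a p that misses the threshold does not show that the groups were alike.

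No gene of the lymphoid lists was called by edgeR in any of the 3 comparisons of conditions. Of 18 lymphoid genes tested 0 were called, with medians of 0.02 for aged against young, -0.06 for CASIN against aged and -0.07 for CASIN against young. Of 10 genes of receptor gene cutting and joining 0 were called (-0.01, -0.01 and -0.03), and of 12 stem cell genes 0 (0.07, 0.10 and 0.00), with Hlf at -0.73 in aged samples (edgeR adjusted p = 0.122). Counts were also 0 for DNA replication (20 genes, 0.13 for aged against young and -0.19 for CASIN against aged), mitosis (20 genes, 0.15 and -0.04), cyclin D and Cdk genes (11 genes, 0.28 and -0.09), granule and myeloid genes (15 genes, 0.09 and -0.11), megakaryocyte and erythroid genes (8 genes, -0.05 and 0.21), chemokine and Wfdc genes (4 genes, -0.09 and -0.12), interferon genes (15 genes, -0.20 and -0.09) and sorting markers (6 genes, 0.02 and 0.05). The heat shock list (10 genes, 0.19 and -0.36) and the list of folding in the endoplasmic reticulum (12 genes, 0.22 and -0.34) also had 0 calls.

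Immediate early genes, which cells switch on within minutes of a stimulus, had different medians in the 2 batches, a difference that was not tested. None of the 20 was called for aged against young, 13 were higher at an unadjusted p under 0.05, and the median of 0.75 split into 0.00 in batch 1 and 1.33 in batch 2. At that unadjusted level 5.72% of all genes tested were higher and 4.64% lower. Nr4a1, an orphan nuclear receptor, stood at 101, 149 and 320.0 CPM in the young, 168, 1350.0 and 637 CPM in the aged and 155, 202 and 397 CPM in the CASIN samples. The aged samples of batch 2 stood apart from the rest, and the fitted difference of 1.24 did not pass (edgeR adjusted p = 0.208). Nr4a2, its relative, stood at 27.1, 26.3 and 100.2 CPM in the young, 45.1, 433 and 179.9 CPM in the aged and 42.2, 50.01 and 129 CPM in the CASIN samples (1.42, edgeR adjusted p = 0.116). Both passed in some alternatives, with edgeR adjusted p = 0.0029 and 0.0032 in cells thinned to 4000 UMIs, and without aged replicate 1 with 0.0467 for Nr4a1 and 0.0496 for Nr4a2. Nr4a2 also passed without aged replicate 2 (edgeR adjusted p = 0.0345) or 3 (0.0435). Without aged replicate 2 the log2 fold changes of both fell, to 0.77 for Nr4a1 and 0.89 for Nr4a2.

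CASIN against aged, which shares the aged samples with the comparison above, had 9 of the 20 lower at an unadjusted p under 0.05, beside 3.44% of all genes, and a median of -0.58, made of 0.05 in batch 1 and -1.01 in batch 2. Nr4a1 was at -0.77 (edgeR adjusted p = 0.766), with 0.05 and -1.25 in the batches, and Nr4a2 at -0.76 (0.766). Without aged replicate 1 they were at -1.28 and -1.14, without aged replicate 2 at -0.31 and -0.24 and without CASIN replicate 3 at -0.38 and -0.34, and none of these passed the test. The NF-kB list, with inhibitors and subunits of this inflammatory factor, had 0 calls, 8 of 12 higher with age and 7 of 12 lower with CASIN at the unadjusted level, with batch medians of -0.01 and 0.94 for aged against young and -0.07 and -0.48 for CASIN against aged. Dnajb1, a chaperone partner, was at 0.50 (edgeR adjusted p = 0.486) and -0.46 (0.766). Both values moved with single samples, the first to 0.07 without young replicate 3, 0.30 without aged replicate 2 and 0.98 without aged replicate 1 (edgeR adjusted p = 0.0629), and the second to -0.26 without aged replicate 2 and -0.92 without aged replicate 1. In batch 2 each of these comparisons had a single young and a single CASIN sample.

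**Figure D5:**
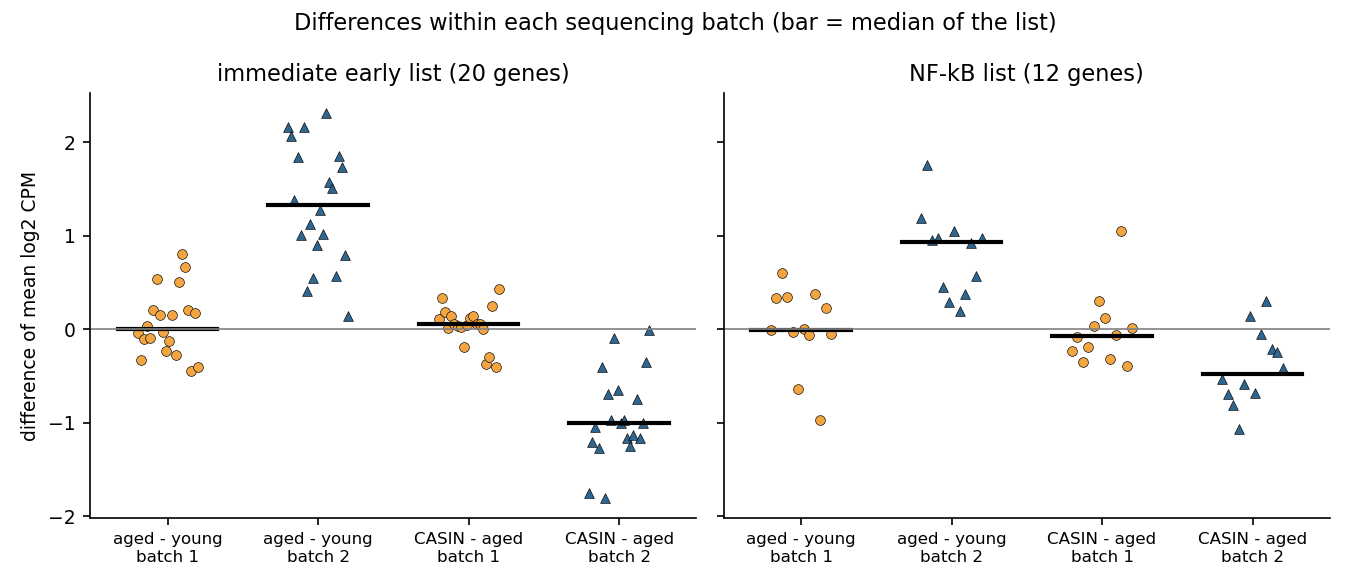
Difference of mean log2 CPM of each tested immediate early (20) and NF-kB (12) gene within batch 1 and batch 2, for aged minus young and CASIN minus aged, with the list median as a bar. In batch 1 the medians lay between -0.07 and 0.05, and in batch 2 those of the immediate early list were 1.33 and -1.01.

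Whether the age difference was another one in the members than in the Flt3-positive Dntt-negative cells was tested as an interaction. It was called for 11 of 11677 genes (0.0942%) for aged against young and for 3 (0.0257%) for CASIN against aged. Cst3, the protease inhibitor cystatin C, stood at 381, 413 and 388 CPM in the young and 385, 408 and 428 CPM in the aged members, while in the Dntt-negative cells it stood at 368, 382 and 364 CPM and at 591, 495 and 435 CPM (log2 difference of the changes -0.43, edgeR adjusted p = 0.0169). Mt1 stood at 9.15, 11.2 and 16.2 CPM in the young and 88.6, 41.3 and 44.6 CPM in the aged Dntt-negative cells, a larger difference than in the members (-1.07, edgeR adjusted p = 0.0307). Clu, the extracellular chaperone clusterin, was 3.84, 4.41 and 9.46 CPM in young and 7.46, 7.37 and 3.09 CPM in aged members, against 0.660, 1.75 and 2.22 CPM and 18.6, 7.78 and 4.48 CPM in the Dntt-negative cells (-2.82, edgeR adjusted p = 0.0006). The values of the other called genes were mostly under 20 CPM. These calls depended on the tool and the depth, since DESeq2 kept 1 of the 11, Clu, and edgeR called 0 in cells thinned to 4000 UMIs, where Cst3 was at -0.04 (adjusted p = 0.992). Without aged replicate 1 the difference was -0.23 for Cst3 (edgeR adjusted p = 0.944) and -0.51 for Mt1 (0.945).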

How the data were processed

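LSK cells of 9 samples were profiled with 10x Genomics 3′ version 3 chemistry, 1 library per sample. The authors deposited the counts of UMIs per gene and barcode as made by Cell Ranger 3.1.0 on mm10, per the submitters' processing notes, without normalization, and the paper's methods give GRCm38 with the Ensembl annotation. All values were whole numbers, and 0 columns of other samples were present. Members were chosen by the UMI rule in Python 3.11.15 (numpy 2.4.6, scipy 1.17.1, pandas 2.3.3), doublets were called per library with Scrublet in scanpy 1.11.5 and were kept, and figures were drawn with matplotlib 3.10.9.

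UMIs were summed per sample and class and tested by the quasi-likelihood method of edgeR 4.0.16 after TMM scaling and filterByExpr, over all samples and with sequencing batch as a term (between classes, the sample as a block), in R 4.3.3 with limma 3.58.1. P-values were adjusted by Benjamini-Hochberg over all genes tested, with a threshold of 0.05, and Flt3, Dntt, Il7r and Ly6d were left out. Differences within a batch are of mean log2 CPM with a prior count of 2. Thinned shares are the share expected at 4000 UMIs, with shallower cells left out. Shares were compared with exact permutation tests and cover sampling of cells and molecules only through the spread between samples. The steps were tested on simulated data.

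The naming rule took, per comparison, up to 12 higher and 12 lower called genes with a mean of at least 20 CPM in either group and the same direction in both batches (or in 9 of 9 samples between classes), up to 4 members per list by lowest p, and Satb1, Cdc42, Nr4a1, Nr4a2 and Dnajb1. Genes followed across the Dntt bins, Elane, Vpreb1, Cox6a2 and the genes called in the interaction were named outside it after their values were seen, as were the batch, Igkc and marker comparisons. The members, the markers and the gene lists (lymphoid priming, receptor gene cutting and joining, granule and myeloid, stem cell, megakaryocyte and erythroid, MHC class II, interferon, immediate early, heat shock, endoplasmic reticulum folding, NF-kB, chemokine and Wfdc, DNA replication, mitosis, cyclin D and Cdk, sorting markers, sex-linked and 6 lists of other cell types) were chosen with earlier results of these data known.

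As alternatives, the Wald test of DESeq2 1.42.0 replaced edgeR, DESeq2 size factors replaced TMM, and genes of low count were kept. Others were a mitochondrial limit of 5%, cells thinned to 4000 UMIs, the study's residual filter of 0.4, doublets left out, a block by replicate number, no term for batch, fits of 2 groups alone, at least 2 Dntt UMIs, thinning to 2000 UMIs or none for shares, and each sample left out. Il7r or Ly6d cells with Flt3 and Dntt were set apart after the data were seen. Gene positions come from GENCODE on GRCm38 and promoters from RefSeq on GRCm38.p6. The stem-type cells that give the reference level of Dntt were defined after the data were seen. Antibody-derived libraries were not used here, and some genes are not reported here.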

Additional observations from a re-analysis of the deposited data

Results flagged for a closer look

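In the member cells and the Flt3-positive Dntt-negative cells of the same samples, the change with age differed by the edgeR interaction test for 11 genes, each given as the log2 change in the members minus that in the Dntt-negative cells. It was lower in the members for Ccr2, a chemokine receptor (-4.03, on 67 UMIs in all members), Clu (-2.82), Hspa1a, a heat shock protein (-2.74), Naaa, a lysosomal amidase (-2.29), Slpi, a protease inhibitor (-1.94), Rsad2, an interferon-induced gene (-1.17), Mt1 (-1.07) and Cst3 (-0.43). It was higher in the members for the pseudogene Olfr1369-ps1 (1.02), the linker histone Hist1h1b (0.47) and Cd47, the signal that protects cells from being engulfed (0.27). Over the alternatives the difference ran from -2.88 to -0.58 for Hspa1a and from -1.98 to -0.82 for Rsad2. Hspa1a kept its call in 13 of 16 of them and Rsad2 in 11 of 16. Slpi stood at 7.82, 11.5 and 12.1 CPM in young and 18, 11.6 and 6.80 CPM in aged members, against 1.04, 3.36 and 2.02 CPM and 8.57, 13.2 and 14.6 CPM in the Dntt-negative cells, and its difference was -1.19 without young replicate 3 (edgeR adjusted p = 0.696). Cd47 stood at 674, 705 and 777 CPM in young and 695, 577 and 602 CPM in aged members, against 596, 616 and 734 CPM and 486, 457 and 483 CPM in the Dntt-negative cells.

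The change between CASIN and aged samples differed between the classes for 3 genes, among them Hspa1a (2.17) and the linker histone H1fx (0.71). Hspa1a had 0, 17.2 and 16.9 CPM in aged and 1.36, 0.816 and 25.5 CPM in CASIN members. H1fx stood at 46.8, 51.2 and 66.4 CPM in aged and 51.1, 78.6 and 81.0 CPM in CASIN members. Without CASIN replicate 3 neither passed (edgeR adjusted p = 0.940 for Hspa1a and 0.474 for H1fx).

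The share of members among LSK cells moved in opposite directions in the batches with no overlap of the groups within either batch, a difference that was not tested. Aged minus young was -11.5 points in batch 1 and 1.60 points in batch 2, and CASIN minus aged was 4.04 and -3.52 points. Among Flt3-positive cells, aged minus young was -7.81 points in batch 1 and 5.49 points in batch 2.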

How the results depend on the processing

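For aged against young, 17 genes were called by edgeR, 38 by DESeq2 (16 shared), 27 with no filter, 11 with a 5% mitochondrial limit, 0 without the batch term and 1 to 51 with a sample left out, and 14 in thinned cells, of which 5 were shared. For CASIN against young, 13 became 23 with DESeq2, 5 in thinned cells, 8 with doublets left out, 0 without the batch term and 4 to 19 with a sample left out. CASIN against aged stayed at 0 except for 0 to 1 with a sample left out (Lgals3, without aged replicate 3) and 1 (Slc15a2) with the replicate block. The count between members and Dntt-negative cells went from 4036 to 905 in thinned cells, and that against Il7r or Ly6d cells from 1134 to 206 in thinned cells and 2060 with no filter. The interaction counts of 11 for age and 3 for CASIN became 1 and 0 with DESeq2, 32 and 16 with no filter, 0 and 1 in thinned cells, and 7 to 19 and 0 to 14 with a sample left out. Among named genes, H2-Aa and H2-Eb1 kept their age call in 18 of 20 alternatives, Bmpr1a in 18 of 19, H2-Ab1 in 13 of 20, Aldh1a1 in 8 of 19 and Clec1a in 3 of 19. For CASIN against young, H2-Ab1 kept its call in 9 of 20, Cenpv in 11 of 20, Hmga2 in 7 of 20 and Cpne8 and Gm14964 in 6 of 19. Of the uncalled genes run, Satb1 turned sign for aged against young (-0.008 to 0.41) and CASIN against aged (-0.33 to 0.09), as did Cdc42 for aged against young (-0.09 to 0.07). The cause was not tested.

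With a sample left out, the share difference of CASIN minus aged among LSK cells ran from -1.24 to 2.06 points and turned to -0.455 points without aged replicate 1. Among Flt3-positive cells, aged minus young ran from -9.57 to 0.361 points, CASIN minus aged from -1.63 to 6.68 points, and CASIN minus young from -6.48 to 3.45 points, with 2.42 points without CASIN replicate 3. Replicate numbers did not pair all samples. Deviations from the group means followed the batch, at -0.88 to -0.57 between batches whatever the number. Within a batch they correlated at 0.76 to 0.89 for the same number and 0.63 to 0.81 for different numbers. The replicate block gave 44 genes for aged against young (16 of the 17 among them) and 27 for CASIN against young. Of the shares, none passed the test in any alternative, and 3 samples against 3 cannot.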

Other observations

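Red cell genes had lower values in the aged than in the young members, without passing the test. The 7 red cell markers summed to 28.8, 33.8 and 39.8 CPM in the young, 23.0, 9.47 and 12.4 CPM in the aged and 36.8, 20.2 and 13.2 CPM in the CASIN members. Of the 2 tested, both were lower in aged than in young samples at an unadjusted p under 0.05, beside 4.64% of all genes tested, and neither was called by edgeR. Cdkn1a, the cell cycle inhibitor p21, stood at 99.1, 129 and 332 CPM in the young, 162, 557 and 477 CPM in the aged and 144, 150 and 395 CPM in the CASIN members (aged against young 0.64, edgeR adjusted p = 0.079), with every aged sample above the young samples of its own batch.

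Egr1, an immediate early gene, separated the batches rather than the groups, with 303, 426, 400.2, 383 and 467 CPM in the 5 samples of batch 1 and 8.73, 53.7, 28.4 and 11.1 CPM in the 4 samples of batch 2. Of the other marker lists, 0 of 3 B lineage, 3 T and NK lineage, 3 dendritic, 1 granulocyte and macrophage, 4 stromal and endothelial and 5 sex-linked genes tested were called by edgeR between conditions, with medians for aged against young of 0.00, -0.38, -0.02, 0.15, -0.32 and 0.06.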
